A study of Mus musculus with 22 samples.

Results

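The mitochondrial ribosomal protein genes were taken as all rows whose symbol starts with Mrpl or Mrps followed by a digit, without the 5 symbols that end in -ps and mark pseudogenes. This gave 78 genes among the 34866 rows of the culture tables, all protein coding, and 76 among the 23911 rows of the cartilage table, where Mrpl53 and Mrps34 were not analysed. The series asked how the DNA methyltransferase Dnmt1 affects gene expression in mouse chondrocytes, the cells of cartilage. Control mice carried the Dnmt1 flox allele without Cre in the label, and mutant mice (cKO) were Prrx1-Cre;Dnmt1 flox/flox, in which Cre is driven by Prrx1 sequences active in the limb bud mesenchyme and so also in limb cells other than chondrocytes. Primary chondrocytes from knee articular cartilage were sequenced at day 0 (3 control and 3 cKO libraries) and after 3 days with the growth factor BMP2 at 100 ng/µl as labelled (4 and 4), and cartilage of mice at postnatal day 5, treated with collagenase, gave 4 control and 4 cKO libraries, each with 2 males and 2 females by the labels. The titles of the culture libraries call them biological replicates without saying whether each is an animal or a culture, so p-values measure the spread between these libraries.

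Mitochondria keep their own ribosome, which translates only the messages encoded in mitochondrial DNA, all of them for subunits of the respiratory chain and ATP synthase. Its ribosomal RNAs come from the mitochondrial genome, while its proteins, named Mrps for the small and Mrpl for the large subunit, are encoded in the nucleus, made in the cytosol and imported. Some have a counterpart in bacterial ribosomes and others occur only in mitochondria. Chondrocytes live in tissue with few blood vessels and are known for a high share of glycolysis in their energy supply.

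The labels were first checked against Dnmt1 itself. At day 0 its level was 147 to 159 CPM (counts per 1000000 counts, scaled by TMM, the trimmed mean of M-values) in the controls and 25.7 to 31.3 in the cKO libraries. At day 3 the ranges were 64.9 to 83.5 and 11.6 to 36.4, and in cartilage 34.5 to 48.6 and 11.8 to 14.3. Total counts were 41749327 to 51741478 per library at day 0, 14434197 to 18918714 at day 3 and 1100198 to 1888896 in cartilage. The summed level of 14 chondrocyte markers was 158989 to 168143 CPM in day 0 controls against 54513 to 66804 in cKO, 110103 to 135929 against 1822 to 20033 at day 3, and 79042 to 116382 against 39265 to 72728 in cartilage. Muscle markers moved the other way, from at most 2.23 CPM in day 3 controls to between 165 and 2142 in day 3 cKO cultures, and osteoclast and macrophage markers were at 143 to 490 CPM in control and 67.2 to 138 in cKO cartilage. The part of these shifts in the results on the ribosomal genes was not tested, and in such bulk samples fewer cells of a type and less RNA per cell cannot be told apart. Day 3 cKO replicate 4 stood apart, with the 1822 CPM of chondrocyte markers. Its osteoclast and macrophage markers were at 390 CPM, against 107 to 124 in the other day 3 cKO libraries. The counts of called members that involve day 3 cKO cultures, and some single values, are therefore also given without it. Genotype and the library label that the authors deposited for cartilage cannot be told apart, since each such label holds samples of 1 genotype.

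Because Dnmt1 copies methylation at CpG sites, the start regions of members that the results below turn on are shown with every CpG in capitals. They run from 100 bases before to 30 bases after the annotated start, on the strand of the gene, from RefSeq promoters of GRCm38.p6. Mrps6, Mrpl24 and Mrps26 fell in cKO cultures, Mrps22 and Mrps11 rose, Mrps23 differed between the days and Mrpl32 rose in cartilage.
Mrps6, chr16:92058236-92058365, plus strand: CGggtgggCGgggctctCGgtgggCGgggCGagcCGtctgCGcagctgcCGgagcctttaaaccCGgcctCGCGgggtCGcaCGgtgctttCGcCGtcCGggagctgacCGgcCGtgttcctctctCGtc
Mrpl24, chr3:87919444-87919573, plus strand: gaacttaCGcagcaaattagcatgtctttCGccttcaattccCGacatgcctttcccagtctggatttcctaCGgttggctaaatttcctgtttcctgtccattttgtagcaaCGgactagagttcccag
Mrps26, chr2:130563657-130563786, plus strand: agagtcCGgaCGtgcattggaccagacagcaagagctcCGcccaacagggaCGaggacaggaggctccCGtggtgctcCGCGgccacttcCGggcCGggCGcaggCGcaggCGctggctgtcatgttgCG
Mrps22, chr9:98601650-98601779, minus strand: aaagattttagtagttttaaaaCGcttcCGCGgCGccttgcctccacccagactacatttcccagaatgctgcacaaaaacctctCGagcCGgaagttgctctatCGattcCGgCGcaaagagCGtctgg
Mrps11, chr7:78783031-78783160, plus strand: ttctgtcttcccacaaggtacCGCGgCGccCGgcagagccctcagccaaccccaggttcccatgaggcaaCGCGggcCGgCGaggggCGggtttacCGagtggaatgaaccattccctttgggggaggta
Mrps23, chr11:88204288-88204417, plus strand: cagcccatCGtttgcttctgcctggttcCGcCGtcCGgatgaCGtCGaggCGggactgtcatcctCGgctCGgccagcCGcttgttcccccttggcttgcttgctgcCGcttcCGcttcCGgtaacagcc
Mrpl32, chr13:14613008-14613137, minus strand: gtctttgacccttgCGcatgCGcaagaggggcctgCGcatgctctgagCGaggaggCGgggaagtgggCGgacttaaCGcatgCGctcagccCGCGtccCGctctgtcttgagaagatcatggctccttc
The Mrps6 window held 19 CpG sites and the Mrpl24 window 5, and both genes were lower in cKO cultures. No methylation was measured in these files. RefSeq promoters of 300 bases were found for 69 of the 78 members, as 75 sequences because Mrpl48, Mrpl2 and Mrps16 have several starts. They held a median of 21 CpG sites (range 5 to 43), against 7 over all 32851 promoters of the table and 19 over the 14591 promoters of genes tested at day 0.

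Letters resembling the cores of factors known for nuclear genes of mitochondria were searched on both strands of these 300 bases. CCGGAAG, the core read by ETS factors such as GABP, was in 34.67% of member promoters, 8.86% of all promoters and 15.54% of those of genes tested at day 0. GCATGCGC, an NRF1 core, was in 10.67%, 2.71% and 4.76%. AAGATGGC, a YY1 core, was in 16.0%, 2.75% and 3.94%, and the E-box CACGTG was in 9.33%, 7.15% and 9.46%. The Mrps26, Mrps22 and Mrps23 windows above each hold 1 ETS core, and the Mrpl32 window holds 4 matches of the NRF1 core, some of which overlap on opposite strands. These matches describe letters, not bound sites. In day 0 cKO cultures Mrps26 was lower, Mrps22 higher and Mrps23 at the control level. These 3 genes were printed because of their results, and members with and without the ETS core were not compared.

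The members are genes of middle abundance. In day 0 controls their mean levels ran from 6.95 CPM (Mrpl23) to 91.2 CPM (Mrpl17), with a median of 28.7 CPM. Per kilobase of exonic sequence, the highest in the day 0 controls were Mrpl54 (43.5 CPM per kb), Mrpl2 (41.0), Mrps28 (35.9), Mrpl12 (33.2) and Mrps21 (31.3), and the lowest were Mrpl23 (1.42), Mrps35 (1.86), Mrps25 (3.05), Mrpl1 (3.52) and Mrps9 (3.70). The exonic length adds up all annotated transcripts, so a gene with long rare transcripts is given a low value per kb. Replicates were close at day 0, with a median coefficient of variation of 3.02% over the members in controls, against 10.2% at day 3 and 16.7% in cartilage. In cartilage, sequenced from the 3′ ends, 9 of the 76 listed members had too few counts for a test (Mrpl9, Mrpl22, Mrpl24, Mrpl44, Mrpl49, Mrps18b, Mrps27, Mrps33 and Mrps36).

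The first comparison asked how loss of Dnmt1 changed these genes before BMP2. In day 0 cultures 34 of the 78 members fell and 14 rose at an adjusted p under 0.05 (edgeR's quasi-likelihood test with Benjamini-Hochberg adjustment), but with scaling by total counts alone the split turned to 17 lower and 23 higher. That scaling moved the median log2 fold change of all genes from 0.01 to 0.12, and the members' median lay 0.09 below that of all genes under both scalings. Of all 15530 genes tested, 64.5% were called, 31.6% lower and 33.0% higher, so the share of members called, 61.54%, was near the background. Members changed little in size: their median absolute log2 fold change was 0.17, against 0.34 for all genes and 0.25 for the 3191 other genes between the 10th and 90th percentile of the members' abundance, and no member passed a log2 change of 1. Of 14 proliferation genes, 13 rose and 0 fell in the same comparison (median log2 fold change 0.43); their part in the members' result was not tested. The control and cKO libraries did not overlap for 53 of 78 members, or 67.95%, against 70.3% of all genes.

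**Figure D1:**
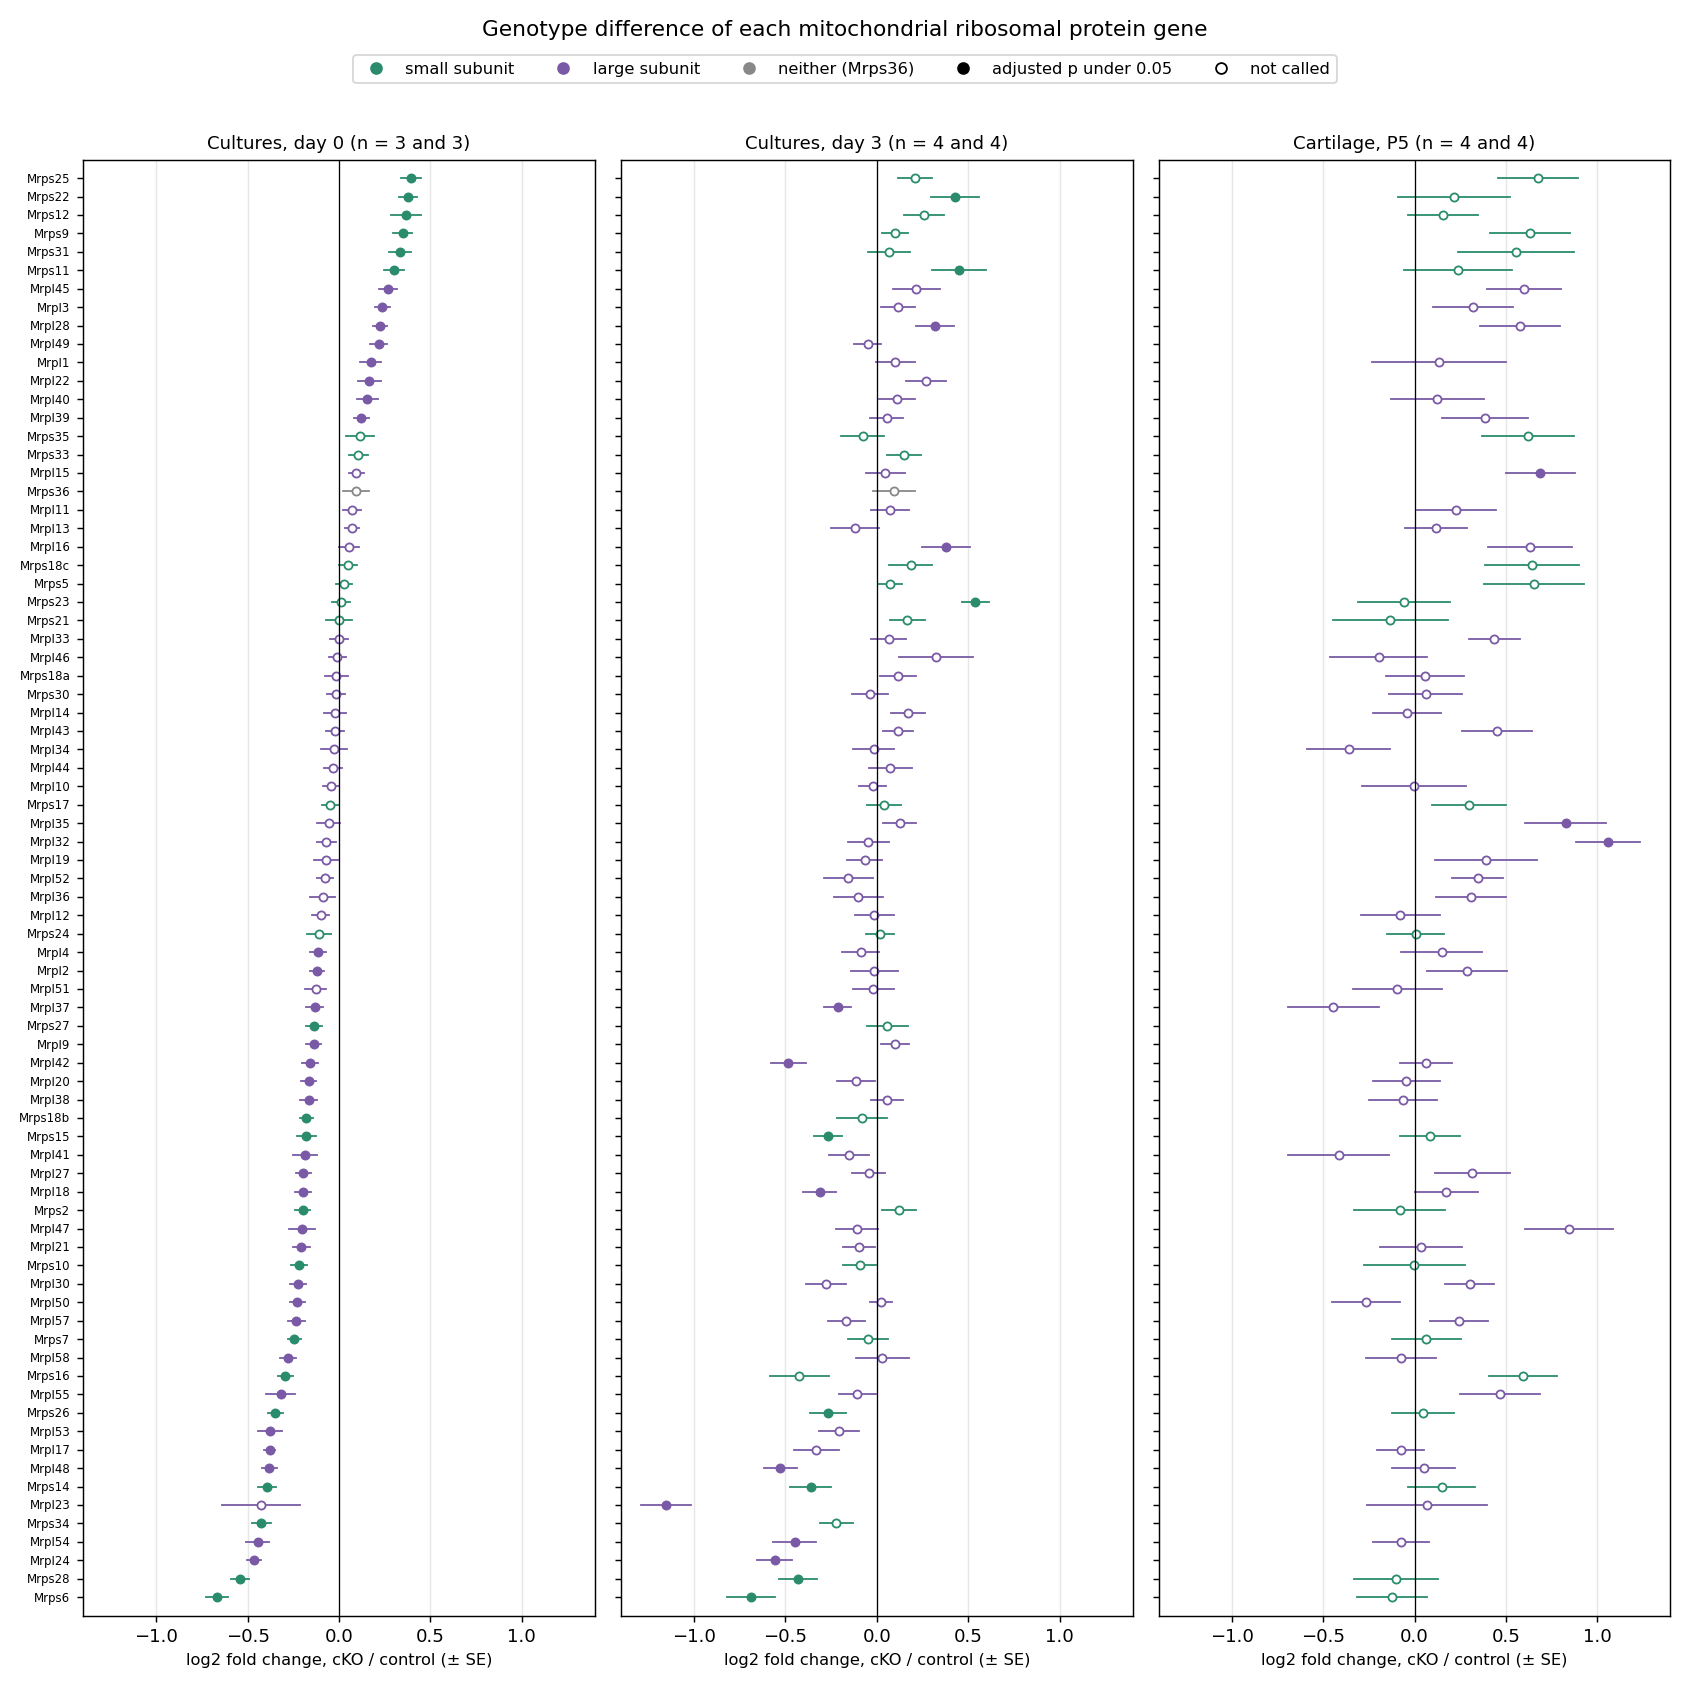
Log2 fold change of cKO over control for each member (points) with its standard error (lines), in day 0 cultures, day 3 cultures and cartilage, sorted by the day 0 value. Filled points have an adjusted p under 0.05: 48 at day 0, 17 at day 3 and 3 in cartilage.

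Among small subunit proteins with a bacterial counterpart, 7 of 15 fell and 3 rose at day 0, when 31.6% of all genes fell and 33.0% rose. The class counts here and below hold for the main scaling, and several of the falls were not called with total-count scaling. Mrps6 had the largest fall of all members: its levels were 48.5, 44.9 and 47.7 CPM in the controls and 30.1, 31.5 and 27.4 CPM in the cKO libraries. The groups did not overlap, and the log2 fold change was -0.67 ± 0.06 (SE, adjusted p = 1.05e-05 by edgeR). Part of the Mrps6 transcript is shared with Slc5a3 and Gm49711 on the same strand, and Slc5a3 fell by 0.23 on the log2 scale. Mrps14 was at 42.4, 41.7 and 42.2 CPM in controls and 30.3, 33.7 and 32.0 CPM in cKO. The opposite was seen for Mrps12, a protein of the decoding site, at 14.5, 17.3 and 15.9 CPM in controls and 22.6, 19.4 and 19.6 CPM in cKO. Its log2 fold change was 0.36 ± 0.08 (SE, adjusted p = 0.00367 by edgeR). Mrps9 and Mrps11 rose by log2 values of 0.35 and 0.30.

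Among the 10 small subunit proteins that only mitochondria have, 4 fell and 3 rose. Mrps22, in which inherited mutations cause mitochondrial disease, was at 17.1, 18.01 and 17.2 CPM in controls and 23.1, 21.9 and 23.1 CPM in cKO, a log2 fold change of 0.38 ± 0.05 (SE, adjusted p = 0.000122 by edgeR). Every cKO library was above every control library. Mrps25 had the largest rise, from 21.2, 19.3 and 19.7 CPM to 26.2, 25.6 and 27.3 CPM, with a log2 fold change of 0.39. It shares 69.8% of its exonic bases with Nr2c2 on the other strand, and Nr2c2 was at 57.7 to 62.1 CPM in controls and 57.7 to 60.1 CPM in cKO. Mrps31 rose by 0.33 and Mrps26 fell by 0.35 on the log2 scale. Mrps34 fell by 0.43, but 63.42% of its exonic bases are antisense to Mapk8ip3 and 36.97% are shared with Nme3. Mrps27, an RNA-binding protein with pentatricopeptide repeats, fell by 0.14, but its call was lost in 6 of 12 alternative fits, DESeq2 among them. Mrps28, which was left without a class, fell from 28.0, 28.5 and 27.7 CPM to 20.2, 19.3 and 18.4 CPM, a log2 fold change of -0.54 ± 0.05 (SE, adjusted p = 1.16e-05 by edgeR).

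In the large subunit, 11 of 29 proteins with a bacterial counterpart fell and 4 rose, and 9 of 20 proteins that only mitochondria have fell and 4 rose. Mrpl55 and Mrpl58, large subunit members also left without a class, fell by 0.32 and 0.28 on the log2 scale. Mrpl24 was at 62.1, 63.7 and 62.6 CPM in controls and 44.7, 47.2 and 44.7 CPM in cKO, a log2 fold change of -0.46 ± 0.04 (SE, adjusted p = 6.37e-06 by edgeR), and the groups did not overlap. Its 26.34% overlap on the other strand is with Rrnad1, which was not called (log2 fold change -0.19, adjusted p = 0.0657 by edgeR). Mrpl17, the most abundant member, fell from 90.3, 92.4 and 90.8 CPM to 71.8, 69.7 and 69.1 CPM. Mrpl54, Mrpl48 and Mrpl53 fell by 0.44, 0.38 and 0.38 on the log2 scale. Mrpl53 lies almost wholly within Gm42688 on the same strand, so reads of both cannot be separated. Mrpl45, which helps to hold the ribosome at the inner membrane, rose from 30.2, 28.9 and 27.3 CPM to 35.3, 34.5 and 34.1 CPM, a log2 fold change of 0.27. Mrpl3, Mrpl28 and Mrpl49 rose by 0.24, 0.22 and 0.22. The stalk proteins Mrpl10 and Mrpl12 were not called, with log2 fold changes of -0.04 and -0.10, and neither were Mrpl44 (-0.03), Mrps30 (-0.02) and Mrps18a (-0.01), the last 2 of which sit in the large subunit despite their names. Of the other Mrps18 paralogs, Mrps18b fell by 0.18 (not called with total-count scaling) and Mrps18c was not called (log2 fold change 0.05). Mrps36, now known as a subunit of the oxoglutarate dehydrogenase complex, was not called either (log2 fold change 0.09).

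**Figure D2:**
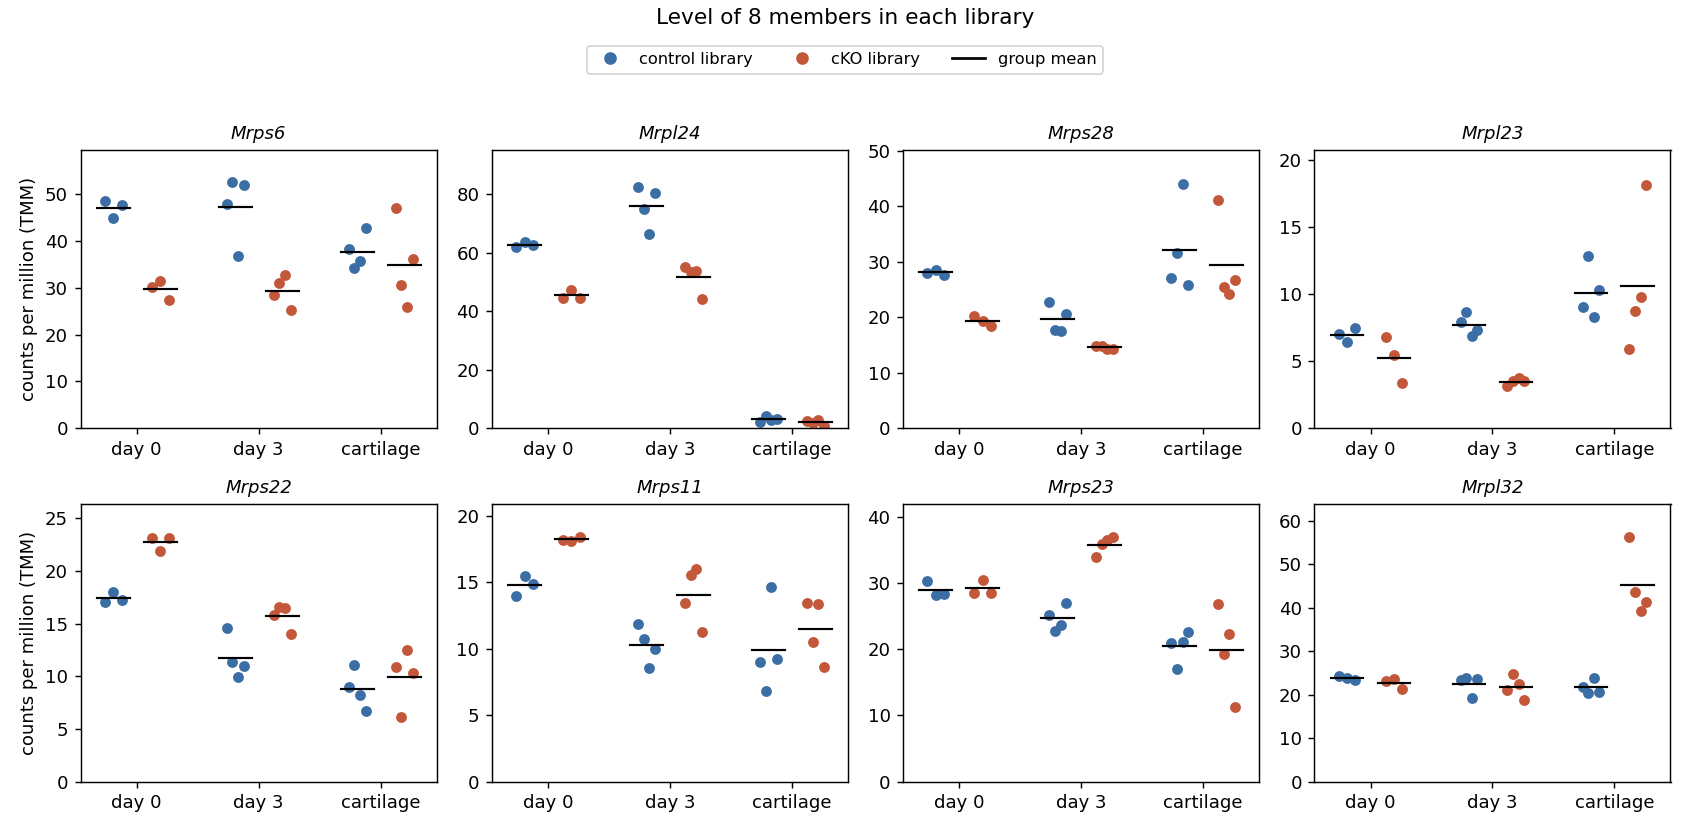
Level in CPM (vertical axis from 0) of 8 members in every library (points) with group means (lines), for control and cKO at day 0, day 3 and in cartilage. Mrps6, Mrpl24 and Mrps28 are lower in cKO cultures on both days, Mrps23 is higher in cKO at day 3 and overlaps at day 0, and Mrpl32 is higher among the cKO cartilage libraries.

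In day 3 cultures 12 members fell and 5 rose, 21.79% of the 78, against 48.1% of all 13924 genes tested (22.6% lower and 25.5% higher). With scaling by total counts the split was 7 lower and 7 higher, and without cKO replicate 4 it was 14 lower and 5 higher, 24.4% of members against 55.1% of all genes. The members' median absolute log2 fold change was 0.12, against 0.37 for all genes and 0.29 for 3455 other genes of the same abundance range. Control and cKO libraries did not overlap for 13 members, 16.67%, against 47.9% of all genes. The fitted coefficient of biological variation was 0.22, against 0.0774 at day 0.

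Of the 17 members called at day 3, 14 were also called at day 0 and all 14 in the same direction, which is 82.4% of the day 3 calls and 29.2% of the 48 day 0 calls. No library is shared between these comparisons. The same overlap was not counted over all genes, of which 64.5% were called at day 0 in either direction. The 11 that fell on both days were Mrpl18, Mrpl24, Mrpl37, Mrpl42, Mrpl48, Mrpl54, Mrps6, Mrps14, Mrps15, Mrps26 and Mrps28. At day 3 the calls of Mrps26 and Mrpl37 were each lost in 6 of the 8 fits that left out 1 library, that of Mrps14 in 4 of 8 and that of Mrps15 in 2 of 8, and those of the other 7 in none. Mrps6 was at 47.8, 52.6, 36.9 and 51.9 CPM in day 3 controls and 28.5, 30.9, 32.8 and 25.2 CPM in cKO, a log2 fold change of -0.69 ± 0.13 (SE, adjusted p = 0.00282 by edgeR) and of -0.63 without cKO replicate 4. Mrpl24 was at 82.4, 75.01, 66.3 and 80.3 CPM in controls and 55.1, 53.4, 53.9 and 44.3 CPM in cKO, where the last and lowest value is replicate 4. Its log2 fold change was -0.56, and -0.50 without that library. Mrpl48, Mrpl42, Mrpl54, Mrps28, Mrps14 and Mrpl18 fell by 0.53, 0.49, 0.45, 0.43, 0.36 and 0.31 on the log2 scale.

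The 3 members that rose on both days were Mrps11, Mrps22 and Mrpl28. Mrps22 was at 14.5, 11.3, 9.98 and 10.9 CPM in day 3 controls and 15.8, 16.6, 16.5 and 13.97 CPM in cKO, so that cKO replicate 4 fell below control replicate 1. Its log2 fold change was 0.43 ± 0.13 (SE, adjusted p = 0.0255 by edgeR), and the call was lost in 6 of the 8 fits that left out 1 library. The rise of Mrps11, 0.45 on the log2 scale, was also lost in 6 of 8 and that of Mrpl28, 0.32, in 5 of 8. Mrps11 starts head to head with Mrpl46, a large subunit gene on the other strand, which was not called at day 0 (log2 fold change -0.01) or day 3 (0.32).

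Mrpl23, Mrps23 and Mrpl16 were called at day 3 and not at day 0. Mrpl23, whose protein lies near the exit of the peptide tunnel, was at 7.94, 8.69, 6.88 and 7.30 CPM in controls and 3.15, 3.48, 3.72 and 3.49 CPM in cKO. This was the largest change of any member in the genotype comparisons, a log2 fold change of -1.15 ± 0.14 (SE, adjusted p = 0.000247 by edgeR). At day 0 its cKO libraries spread from 3.34 to 6.79 CPM and the change was not called (log2 fold change -0.43, adjusted p = 0.109 by edgeR). The difference between the days was not called either (-0.75, adjusted p = 0.0773 by edgeR). The processed pseudogene Mrpl23-ps1 shares 540 bases with it at 100% identity and was at 19.0 to 22.6 CPM in controls and 18.4 to 22.0 CPM in cKO. How reads were divided between both copies is not given in the sources used here. Mrpl16 rose by 0.38 and lost its call in 6 of the 8 fits with 1 library left out, among them the fit without cKO replicate 4 (log2 fold change 0.31, adjusted p = 0.0586 by edgeR).

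The genotype difference itself was compared between the days in a fit of all 14 culture libraries. Of the 78 members, 2 were called higher and 1 lower (3.85% in all, against 16.8% of 14909 genes, 9.94% higher and 6.89% lower). Without cKO replicate 4, 4 were called higher and 1 lower (6.41% of members, against 27.3% of all genes). With all 14 libraries, 8 members, or 10.3%, passed at an unadjusted p under 0.05, against 30.8% of all genes. Mrps23 had the lowest adjusted p: at day 0 its controls were at 30.3, 28.2 and 28.3 CPM and its cKO libraries at 28.4, 30.5 and 28.6 CPM, overlapping, while at day 3 the controls were at 25.2, 22.8, 23.6 and 27.0 CPM and the cKO libraries at 33.9, 35.8, 36.6 and 36.9 CPM, all above the controls. The day 3 log2 fold change was 0.54 ± 0.08 (SE, adjusted p = 0.000601 by edgeR), and the difference between days was 0.51 ± 0.09 (SE, adjusted p = 0.00281 by edgeR), which was called in each of 19 alternative fits. Mrpl50 (0.23, adjusted p = 0.0428 by edgeR) and Mrpl49 (-0.29, adjusted p = 0.0464 by edgeR) passed as well, but lost the call in 14 and 13 of 19 alternatives. Mrpl50 fell and Mrpl49 rose in day 0 cKO cultures, and at day 3 their log2 fold changes were 0.02 and -0.05, neither of them called. Day, BMP2 and count table changed together, so they cannot be told apart in any comparison between days.

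**Figure D3:**
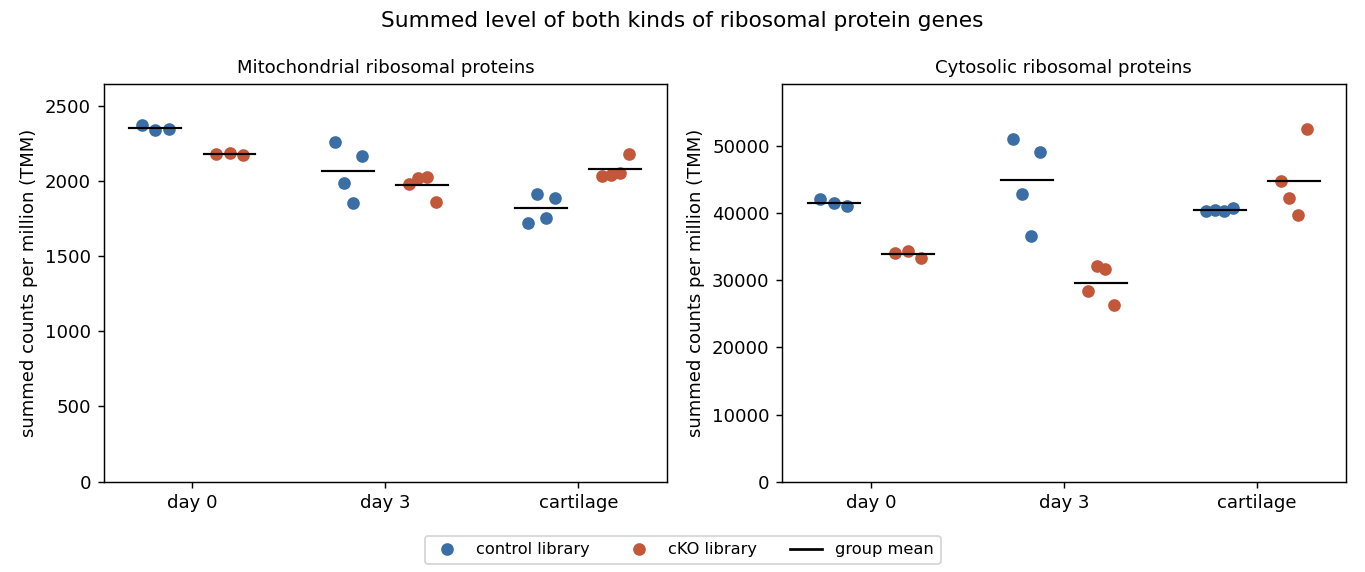
Summed CPM of the mitochondrial (left) and cytosolic (right) ribosomal protein genes in each library (points) with group means (lines), both axes from 0. Mitochondrial sums lie between 2174 and 2375 at day 0, 1853 and 2261 at day 3 and 1722 and 2183 in cartilage.

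In cartilage 3 of the 67 members tested rose and none fell, 4.48% against 6.19% of all 8793 genes (3.15% higher and 3.04% lower). At an unadjusted p under 0.05, 18 members (26.9%) passed edgeR's test, all higher and 0 lower, against 21.7% of all genes (963 higher and 942 lower), and DESeq2 called 1 higher and 0 lower after adjustment. All 3 called genes encode large subunit proteins with a bacterial counterpart. Mrpl32, which is cut to its mature form by the inner membrane protease of Afg3l2 and Spg7, was at 21.8, 20.5, 23.9 and 20.6 CPM in controls and 56.3, 43.7, 39.2 and 41.4 CPM in cKO. Every cKO library was above every control library. Its log2 fold change was 1.06 ± 0.18 (SE, adjusted p = 0.00133 by edgeR), and it was called in all 16 alternative fits. In cultures it was not called at day 0 (log2 fold change -0.07) or day 3 (-0.05), although the RNA was measured there with another kind of library. Mrpl35 was at 11.3, 17.1, 12.8 and 18.02 CPM in controls and 23.5, 27.1, 24.1 and 31.9 CPM in cKO, and Mrpl15 at 30.02, 23.9, 23.9 and 19.6 CPM and 31.1, 43.7, 41.9 and 38.8 CPM. Their log2 fold changes were 0.83 and 0.69, and each lost its call in 6 of the 8 fits with 1 library left out. Both calls were also lost with DESeq2 and with the estimated counts.

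The summed level of the members in cartilage was 1820 ± 95.1 CPM (SD, n = 4) in controls and 2078 ± 70.4 CPM (SD, n = 4) in cKO, with every cKO library above every control library. Of the 67 members, 47 had a positive log2 fold change, and the median over the 67 was 0.15, against 0.01 for all genes. The 79 cytosolic ribosomal protein genes tested in cartilage had a median of 0.12, and the difference between both sets was not tested. Control and cKO libraries did not overlap for 13 members, all of them higher in cKO (19.4%, against 13.5% of all genes). None of the 3 members called in cartilage was called between genotypes in the cultures. Without TMM scaling the members' summed share of all cartilage counts was 1532 to 1944 per 1000000 in controls and 1976 to 2303 in cKO. The authors also deposited estimated counts for cartilage. There the same unscaled share overlapped, at 2105 to 2308 per 1000000 in controls and 2146 to 2396 in cKO. The fit of the estimated counts gave the members a median log2 fold change of 0.17, against 0.002 for all genes. At day 0 the sum was 2352 ± 19.7 CPM (SD, n = 3) in controls and 2182 ± 7.48 CPM (SD, n = 3) in cKO, while without TMM scaling it was 2257 to 2272 per 1000000 in controls and 2254 to 2271 in cKO. At day 3 it was 2067 ± 182 CPM (SD, n = 4) and 1971 ± 77.4 CPM (SD, n = 4), which overlapped.

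The next comparison was of day 3 with day 0. In control cultures 44 of 78 members fell and 4 rose, against 28.8% of 14909 genes lower and 28.1% higher (56.9% called), and in cKO cultures 47 fell and 5 rose, against 29.8% lower and 32.4% higher (62.2% called). The members' median log2 fold changes were -0.33 and -0.27, against 0.00 and 0.02 for all genes, and with total-count scaling 35 fell and 7 rose in controls and 33 fell and 8 rose in cKO. Without cKO replicate 4 the cKO counts were 42 lower and 7 higher. Mrpl46 had the largest fall in controls, from 18.8, 18.7 and 18.5 CPM at day 0 to 12.7, 7.52, 7.68 and 10.1 CPM at day 3, a log2 fold change of -1.08 ± 0.17 (SE, adjusted p = 0.000157 by edgeR). Mrpl12, a stalk protein also reported to bind the mitochondrial RNA polymerase, went from 53.5, 50.7 and 48.6 CPM to 30.8, 27.5, 26.5 and 35.1 CPM. It fell by 0.86 in controls and by 0.80 in cKO on the log2 scale. Mrps18b, Mrps7 and Mrps22 fell by 0.69, 0.68 and 0.68 in controls and by 0.61, 0.50 and 0.64 in cKO. Mrpl46 and Mrps7 were named after their values had been seen.

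Both genotypes shared 40 of the members that fell and 3 that rose (Mrps33, Mrps21 and Mrpl41). This is 91.7% of the calls in controls and 84.6% of those in cKO, counting Mrps23, called in opposite directions. The same overlap was not counted over all genes, of which 56.9% were called in controls and 62.2% in cKO. Mrps23 fell by 0.33 in controls and rose by 0.18 in cKO, where the call was lost in 6 of 19 alternatives. Mrpl49 rose by 0.41 in controls and was not called in cKO (0.12). Proliferation genes fell in the same comparison, 14 of 14 in controls and 13 of 14 in cKO, with median log2 fold changes of -2.04 and -2.10; their part in the result was not tested.

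**Figure D4:**
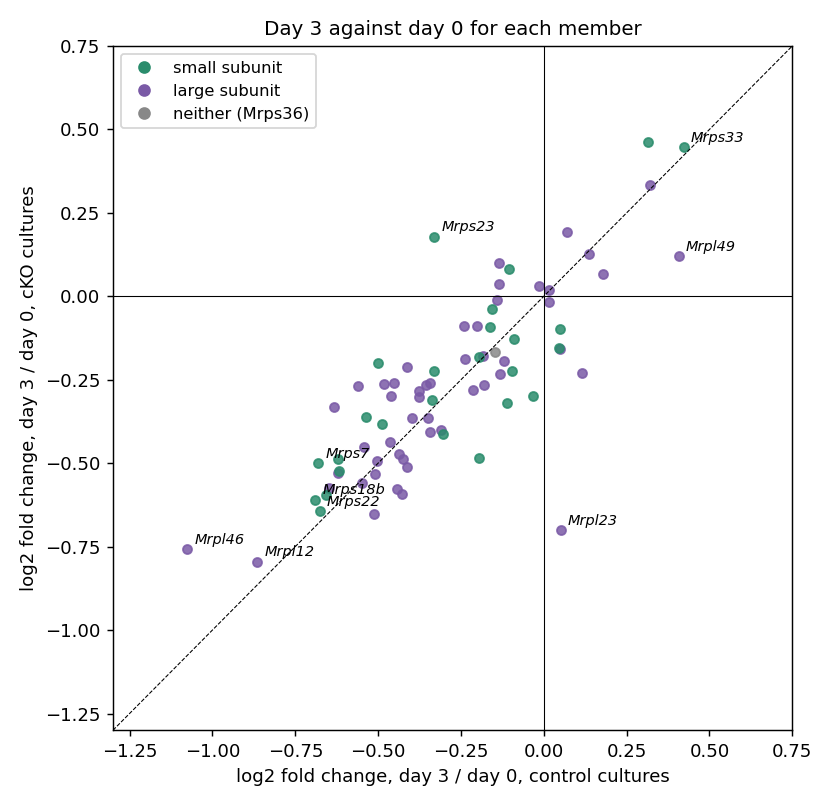
Log2 fold change of day 3 over day 0 for each member in control cultures (horizontal) and cKO cultures (vertical), with the line of equal values dashed. Most points lie in the lower left part, where both values are negative, with Mrps23 at -0.33 and 0.18 and Mrpl23 at 0.05 and -0.70 away from the line.

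The other parts of the machinery were counted from lists of known genes. The cytosolic ribosomal protein genes, which serve translation outside mitochondria, fell more widely: 74 of 82 fell and 2 rose in day 0 cKO cultures, and 74 of 81 fell and 1 rose at day 3, with median log2 fold changes of -0.30 and -0.56. Of all genes, 31.6% and 22.6% were called lower on these days. With total-count scaling 68 and 65 of the cytosolic genes fell. In control cultures 7 of 81 of them fell between day 0 and day 3 and 8 rose (1 and 17 with total-count scaling), beside the 44 of 78 falls of the mitochondrial set. In cKO cultures 35 of 81 fell and 0 rose (17 and 0 with total-count scaling), beside 47 of 78 falls, and the medians were close, at -0.25 for the cytosolic and -0.27 for the mitochondrial set. The differences between both sets were not tested. The mRNAs encoded in mitochondrial DNA, the templates of the mitochondrial ribosome, rose for 9 of 13 in day 0 cKO cultures, 3 of 13 at day 3 and 2 of 10 in cartilage, and none fell. Of all genes 33.0%, 25.5% and 3.15% were called higher in these comparisons, so the day 3 share, 23.08%, was near the background. The day 3 count depended on the method, with 8 of 13 higher under total-count scaling and 11 of 13 by DESeq2, and at day 0 both gave 11. mt-Nd3 had the largest of these day 0 rises (log2 fold change 0.46), and mt-Nd6 (0.75) and mt-Nd5 (0.67) were the 2 in cartilage.

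Mitoribosomal proteins with names outside the Mrp series moved as well. For the counts below, 64.5% of all genes tested were called at day 0 (31.6% lower and 33.0% higher). At day 3 the share was 48.1% (22.6% lower and 25.5% higher). All 5 that were tested changed at day 0, where Dap3, Gadd45gip1, Aurkaip1 and Chchd1 fell by 0.36, 0.22, 0.19 and 0.15 and Ptcd3 rose by 0.13 on the log2 scale. With total-count scaling the list gave 1 lower and 1 higher at day 0, and the 1 call at day 3 was lost. Dap3, a GTP-binding protein of the small subunit, fell by 0.24 at day 3 with the main scaling and rose in cartilage (log2 fold change 0.71, adjusted p = 0.011 by edgeR). Of the assembly and rRNA maturation factors, 15 of 31 fell and 2 rose at day 0 (10 and 5 with total-count scaling), and 9 of 31 fell at day 3 (6 lower and 1 higher with total-count scaling). The protease Lonp1 fell by 1.08 and 0.71 and the rRNA methyltransferase Nsun4 by 0.81 and 0.98. Of the 16 translation factors, 7 fell and 2 rose at day 0, turning to 2 lower and 3 higher with total-count scaling, and 3 fell and 2 rose at day 3 (1 and 2 with total-count scaling). The elongation factor Gfm1 rose by 0.42 and 0.54 and Guf1 fell by 0.30 and 0.88. Of the 22 aminoacyl-tRNA synthetase genes, 9 fell and 4 rose at day 0, turning to 5 lower and 10 higher with total-count scaling, and 5 fell and 3 rose at day 3 (2 and 3 with total-count scaling). Tfam, which packs mitochondrial DNA and helps to start its transcription, fell by 0.35 and 0.33. Among regulators of mitochondrial biogenesis, Ppargc1a fell by 1.68 at day 0 and 3.49 at day 3, and Esrra rose by 0.77 and 0.30. The transcription factor Nrf1 rose by 0.25 at day 0, and Gabpa, an ETS factor, rose by 0.12 and 0.28.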

How the data were processed

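RNA-seq was analysed for 22 libraries in 6 groups, as labelled. For the cultures a strand-preserving kit was used, and the authors deposited estimated counts per gene on GRCm38. These were not all whole numbers and were rounded before every fit, with edgeR as with DESeq2. The aligner and the strand setting are not given in the sources used here. Cartilage libraries are 3′ libraries with molecular identifiers, and the whole-number counts deposited by the authors were used; the submitters' processing notes name UMI-tools 1.1.1, Trim Galore 0.6.7, HISAT2 2.2.1, featureCounts 2.0.1 and DESeq2 1.34.0. A deposited table of expected counts for cartilage served as an alternative. Genes were filtered with filterByExpr (minimum count 10, minimum total 15), scaled by TMM and tested with edgeR 4.0.16 (R 4.3.3) across all genes, with sex as a covariate in cartilage; Benjamini-Hochberg adjusted p under 0.05 was called. The genotype fits, but not the fit of all culture libraries together, were run on simulated data with the same spread for every gene. Few genes were changed in that simulation, unlike in the cultures, so it does not check the scaling. Alternatives were DESeq2 1.42.0, other scalings, no filter, a replicate block and leaving out each library. Gene models came from GENCODE M21, which matched all 78 members, and similar transcripts from blastn 2.17.0 (at least 95% identity over 150 bases). Shared sequence was counted from 20% of exonic bases or 30% of a transcript. Members named are up to 10 called in each direction per genotype comparison, those called for the difference between days, the 5 highest and 5 lowest per kb, and 12 of known role. The members and lists were chosen with earlier results of these data known. Precision is limited by the counts: in cartilage 3 counts equal 1.59 to 2.73 CPM (counts per 1000000).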

Additional observations from a re-analysis of the deposited data

Results flagged for a closer look

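The genotype difference of 3 members was not the same on both culture days by the test of that difference: Mrps23 (0.51 on the log2 scale, day 3 minus day 0), Mrpl50 (0.23) and Mrpl49 (-0.29). Single libraries lay far from the other 3 of their group in 7 of 160 groups examined, and chance alone marks about 1 group in 20. At day 3, cKO replicate 4 was low for Mrpl17 (44.7 CPM against 58.6 to 61.4) and Mrpl24 (44.3 CPM against 53.4 to 55.1). Control replicate 3 was low for Mrpl32 (19.15 CPM against 23.3 to 23.9), and cKO replicate 3 was low for Mrps34 (24.7 CPM against 26.16 to 26.19). In cartilage, cKO replicate 3 was low for Mrps14 (24.98 CPM against 38.6 to 40.5), cKO replicate 1 was high for Mrps28 (41.1 CPM against 24.1 to 26.7), and cKO replicate 4 was high for the summed level of the members (2183 CPM against 2036 to 2054).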

How the results depend on the processing

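No member called in any of the 6 comparisons changed sign in an alternative of that comparison. With total counts as the only scaling, day 0 gave 23 members higher and 17 lower with a median of 0.025, day 3 gave 7 lower, the difference between days gave 1 higher and 0 lower, and day 3 against day 0 gave 7 higher with a median of -0.21 in controls and 8 higher with a median of -0.18 in cKO. Without a filter on low counts the day 0 median was -0.094, day 3 gave 2 higher, the difference between days 1 higher and 0 lower, and day 3 against day 0 in cKO 3 higher. In a fit of all 14 culture samples day 0 gave 7 higher and 13 lower, with a fitted coefficient of biological variation of 0.179 against 0.0774. RLE scaling gave 2 lower and DESeq2 3 lower for the difference between days, and DESeq2 called 1 higher in cartilage. Estimated counts called 2 higher in cartilage, of which only 1 was called in the main fit.

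The replicate block gave 2 higher and 6 lower at day 3, and 1 higher and 0 lower for the difference between days; in cartilage it gave 2 higher. By the labels, same-numbered culture libraries share only a number, while same-numbered cartilage libraries also share their sex. Correlations of same-numbered deviations ran from -0.037 to 0.222 at day 0, -0.147 to -0.072 at day 3 and -0.071 to 0.26 in cartilage. Not every library correlated best with its own number.

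Leaving out each library in turn gave 10 to 13 higher and 30 to 33 lower with a median of -0.11 to -0.07 at day 0, 1 to 5 higher and 8 to 14 lower with a median of -0.06 to 0.02 at day 3, 1 to 3 higher and 0 lower with a median of 0.11 to 0.18 in cartilage, and 1 to 4 higher and 0 to 3 lower with a median of -0.03 to 0.08 for the difference between days. For day 3 against day 0 it gave 3 to 5 higher and 42 to 50 lower with a median of -0.35 to -0.29 in controls, and 3 to 7 higher and 37 to 50 lower with a median of -0.32 to -0.23 in cKO. Depth limits cartilage most, with at most 1888896 counts in a library against at least 14434197 in the cultures.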

Other observations

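Many members start close to another gene on the opposite strand. By GENCODE M21, 23 of the 78 members (29.49%) have a protein-coding partner that starts within 1000 bases upstream, or overlaps by less than 200, against 7.91% of 22028 protein-coding genes. Of these 23, 13 fell and 3 rose in day 0 cKO cultures and 2 fell at day 3, while of the other 55, 21 fell and 11 rose at day 0 and 10 fell and 5 rose at day 3. Over all genes tested, 31.6% fell and 33.0% rose at day 0, and 22.6% fell and 25.5% rose at day 3. The difference between the 2 sets was not tested.

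Many members share sequence with another gene or pseudogene, 23 in all, of which 5 were counted only for exons that overlap a neighbour at their own locus. Among the 55 members with little shared sequence, 21 fell and 12 rose at day 0, 7 fell and 5 rose at day 3, and 3 rose in cartilage. The shares of all genes tested were 31.6% lower and 33.0% higher at day 0 and 22.6% lower and 25.5% higher at day 3. In cartilage 3.15% of all genes were called higher. Mrps36 has 5 pseudogene matches, and it was not called in any of the genotype comparisons in which it was tested.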
